A study of Chlorocebus sabaeus with 3 samples.

Results

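The antioxidant and glutathione genes described here are 36 genes whose products remove superoxide and peroxides, make and recycle glutathione, attach it to electrophiles, or control these functions. They were chosen by name. A gene was read from the probe sets that carry its symbol alone, and its level is that of the brightest such probe set by mean log2 intensity over the 3 tissues. Of the 36 genes, 35 had such a probe set, out of 19775 genes in all. PRDX5 had none and is not reported here. Of the 35, 22 had more than 1 named probe set, and these were used as a check.

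Limbus, cornea, and conjunctiva of vervet monkey (Chlorocebus sabaeus) were each profiled on 1 human U133 Plus 2.0 array. The tissues came from the same eye, and the labels name no treatment. The study gives an age range for its animals, and the age of the animal on these arrays is not given in the sources used here. Each sample held epithelium and tissue beneath it: superficial stroma in the cornea and the limbus, and the underlying Tenon in the conjunctiva. Since whole tissue was measured, fewer cells of a type and less RNA per cell cannot be told apart. With no replicate array, no value below has a replicate error, no difference could be tested, and all comparisons are descriptions of these arrays.

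Superoxide is converted to hydrogen peroxide by superoxide dismutases. Catalase breaks down hydrogen peroxide directly. Glutathione peroxidases and peroxiredoxins reduce hydrogen peroxide and lipid peroxides with electrons from glutathione or thioredoxin, and in the end from NADPH. The transcription factor NRF2 raises many of these genes when its inhibitor KEAP1 is modified by oxidants or electrophiles. The ocular surface is exposed to light and oxygen, and the cornea is known for high levels of some protective enzymes.

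The arrays had similar distributions, with medians between 48.8 and 50.7 intensity units. The 3′/5′ signal ratio of the GAPDH controls, which rises as amplified RNA gets shorter, was 3.12, 4.58, and 3.83 for limbus, cornea, and conjunctiva, and that of the ACTB controls was 11.8, 11.2, and 10.3, so the controls did not order the tissues alike. Of the 5 markers each of the corneal epithelium and the corneal stroma, 4 in each list were highest in the cornea, and the exceptions CLU and CHST6 were highest in the conjunctiva. All 6 goblet cell markers were highest in the conjunctiva. The corneal keratin KRT12 was measured at 8068 in cornea and 54.3 in conjunctiva, and the goblet cell mucin MUC5AC at 1618 in conjunctiva and 102 in cornea. No marker list here was for the limbus alone. Of the 6 basal and mucosal keratins, KRT13 was at least 2-fold above each other tissue in the limbus. It had 5797 there, 303 in cornea, and 1950 in conjunctiva. KRT4 was also highest in the limbus, KRT5 in the cornea, and the other 3 in the conjunctiva. Among these was KRT15, at 3159 in limbus and 3520 in conjunctiva. The limbus had the highest summed level of the 4 measured melanocyte markers, 1476, where cornea and conjunctiva had 351 and 651.

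The samples differed in cell types that also contain antioxidant enzymes. The 5 vascular endothelial markers summed to 1253 (limbus), 380 (cornea), and 1984 (conjunctiva), and the 5 smooth muscle and pericyte markers to 1234, 432, and 3427. The 6 goblet cell markers summed to 1347, 1779, and 9283, and the 4 measured gland markers to 3330, 4044, and 9382, in the same order. For leukocytes, 5 of 6 markers were measured, and they summed to 3602, 4177, and 9196. LYZ is in both the gland and the leukocyte list, and at 3166, 3907, and 8426 it made up most of both sums. PTPRC, which defines leukocytes, had 81.9, 18.8, and 352. Apart from LYZ, the other leukocyte markers were also lowest in the cornea. These were CD14 (157, 97.7, and 186), CSF1R (153, 113, and 185), and CD163 (44.2, 40.3, and 46.9). Of 6 red cell markers 3 were measured, with sums of 361, 343, and 618. Single markers could depart from these sums: PIP, TEK, KDR, RGS5, and SLC4A1 were highest in the limbus and ALAS2 in the cornea. The part of these cell types in the results below was not tested.

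**Figure D1:**
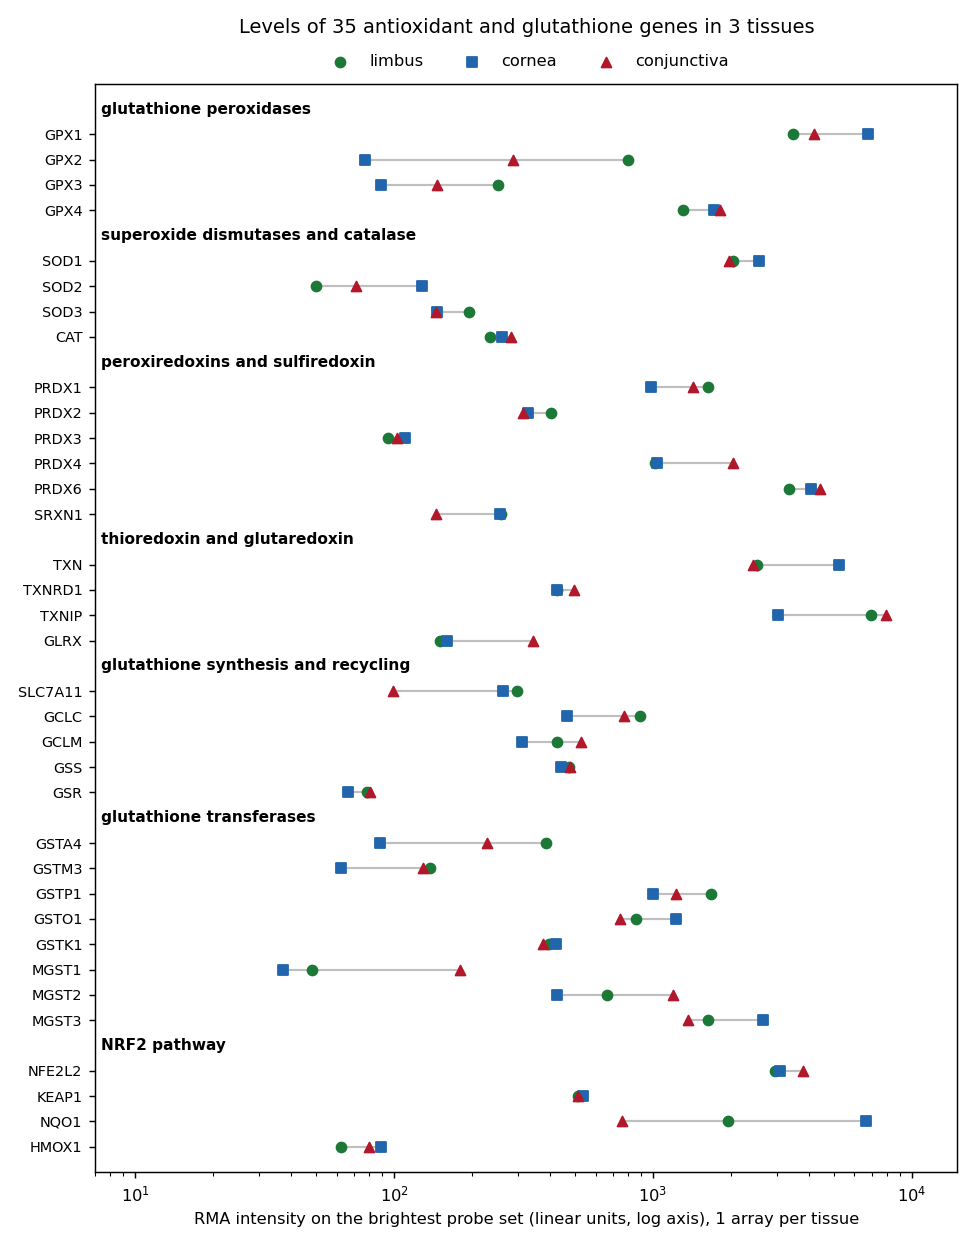
Level of each of the 35 measured genes (rows, grouped by role) by tissue (limbus circles, cornea squares, conjunctiva triangles), as RMA intensity on a log axis, from 1 array per tissue; the grey line joins the lowest and the highest tissue. GPX2 and NQO1 have the widest spread, and levels of different genes are not comparable because their probes differ.

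Among the 35 genes, 12 (34.3%) differed by at least 2-fold in at least 1 pair of tissues, beside 13.9% of all 19775 genes and 20.3% of the 11003 genes that reached a value of 100 in some tissue. All of these 12 genes reached 100. The median ratio of the highest to the lowest tissue was 1.69, compared with 1.39 over all genes and 1.45 over genes that reached 100. The other 23 genes spanned 1.05-fold to 1.99-fold. Most of the set was therefore within 2-fold across the tissues, and the differences below belong to a minority of its members.

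A value at least 2-fold above each of the other tissues was found for 5 genes. GPX2 had it in the limbus (1 gene, with 0.475% of all genes), TXN and NQO1 in the cornea (2 genes, with 1.89% of all genes), and GLRX and MGST1 in the conjunctiva (2 genes, with 1.68% of all genes). PRDX4 lay just below this threshold in the conjunctiva, at 1.95-fold over the cornea and 1.99-fold over the limbus.

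Between pairs of tissues, the conjunctiva was at least 2-fold above the cornea in 7 genes (5.68% of all genes were) and the cornea above the conjunctiva in 3 (5.31%). The limbus was at least 2-fold above the cornea in 5 genes (4.06%) and the cornea above the limbus in 3 (2.51%). Against the conjunctiva, the limbus was higher in 3 genes (2.62%) and lower in 2 (2.31%). Of the 12 genes apart in some pair, the lowest value was in the cornea for 7, in the conjunctiva for NQO1, TXN, and SLC7A11, and in the limbus for SOD2 and GLRX; among all 2749 genes apart in some pair, it was in the cornea for 46.1%. These comparisons share arrays and are not independent of each other.

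Without a fold threshold the tissues were nearly even. The limbus was highest in 11 genes (24.9% of all genes), the cornea in 11 (38.4%), and the conjunctiva in 13 (36.7%). As the median difference between the log2 level of a tissue and the average of the others, the 35 genes had -0.10 for limbus, -0.11 for cornea, and 0.10 for conjunctiva, compared with -0.04, 0.02, and 0.01 over all genes. The set as a whole thus had no sizeable shift to a single tissue. Dividing each array by its hybridization controls, spiked transcripts added before hybridization, moved every log2 ratio of the limbus over the cornea by 0.80, of the limbus over the conjunctiva by 0.56, and of the cornea over the conjunctiva by -0.25. It made the limbus highest in 27 genes, the cornea in 4, and the conjunctiva in 4, and over all genes in 85.8%, 4.4%, and 9.8%. Genes with limbus at least 2-fold over cornea went from 5 to 14, and genes with the reverse from 3 to 0, while over all genes these counts went from 803 to 5509 and from 497 to 79. The number apart in some pair rose from 12 to 19, beside 37.3% of all genes under that scaling.

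**Figure D2:**
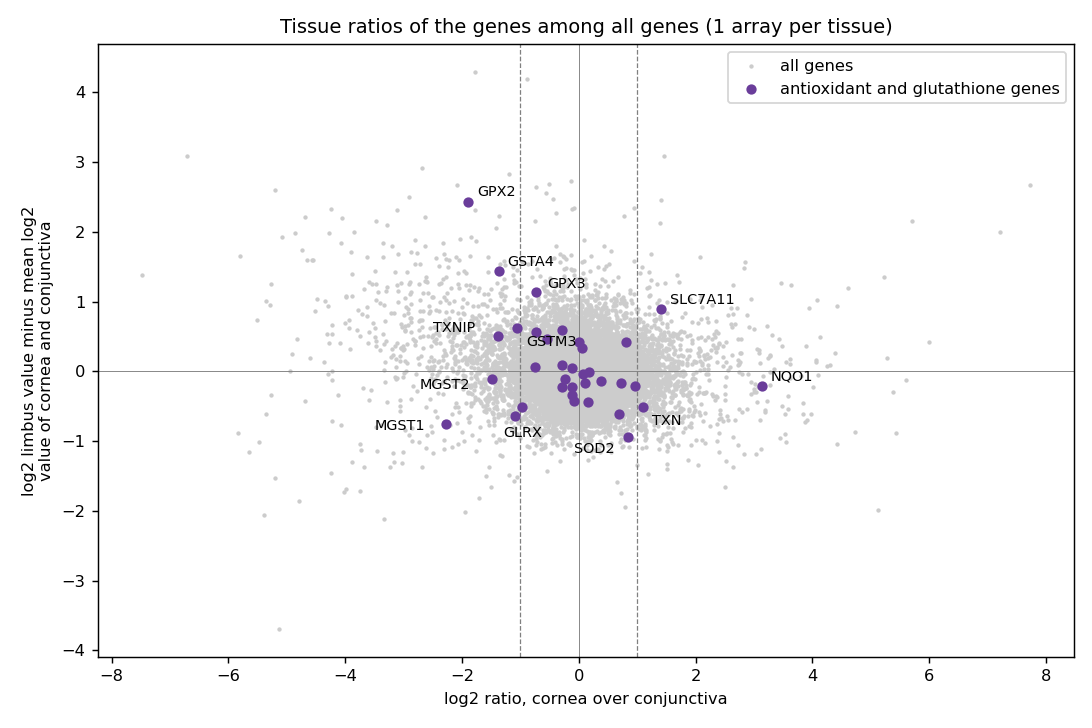
Each point is a gene: the log2 ratio of the cornea over the conjunctiva (horizontal) against the log2 difference of limbus from the average of cornea and conjunctiva (vertical), for all 19775 genes (grey) and the 35 antioxidant and glutathione genes (purple), from 1 array per tissue; dashed lines mark 2-fold. The 12 labelled genes differ by at least 2-fold in some pair of tissues, with GPX2 furthest up and NQO1 furthest to the right.

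The glutathione peroxidases reduce peroxides with glutathione, and all 4 members measured here carry selenocysteine in their active site. GPX2, the epithelial form best known from the gut lining, had limbal, corneal, and conjunctival values of 804, 77.3, and 288. Limbus exceeded cornea 10.4-fold and conjunctiva 2.79-fold, and 34 of all 19775 genes had a larger ratio of the limbus over the cornea. A second, dim GPX2 probe set, at 38.1, 23.9, and 49.4, had its highest value in the conjunctiva. Both probe sets had their lowest value in the cornea. With the median over both probe sets, limbus over cornea was 2.03 and limbus over conjunctiva 0.55 on the log2 scale, the latter under 2-fold.

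GPX3, the secreted form found in plasma, had limbal, corneal, and conjunctival values of 252, 88.6, and 147. The limbus was 2.84-fold above the cornea. On the other GPX3 probe set the values were 162, 37.0, and 169, so the cornea was lowest on both while the highest tissue changed. GPX1, the cytosolic form present in most cells, had limbal, corneal, and conjunctival values of 3481, 6782, and 4197. Cornea exceeded limbus 1.95-fold and conjunctiva 1.62-fold. GPX4, which reduces peroxidized phospholipids in membranes, spanned 1.39-fold, at 1309, 1713, and 1815. The family was thus not uniform: GPX2 and GPX3 had their lowest value in the cornea and GPX1 its highest.

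Among the superoxide dismutases and catalase, SOD2 was the gene at least 2-fold apart. SOD1, the cytosolic copper and zinc enzyme, had limbal, corneal, and conjunctival values of 2033, 2558, and 1964, a span of 1.30-fold. SOD3, the secreted enzyme bound to extracellular matrix, had 195, 146, and 145. For CAT, the peroxisomal catalase, the values were 234, 262, and 284. The levels of SOD1, SOD3, and CAT were within 1.5-fold in every pair of tissues. The mitochondrial manganese enzyme SOD2 was read from 1 named probe set, with limbal, corneal, and conjunctival values of 49.9, 128, and 71.2. Its cornea value was 2.56-fold above the limbus. Since the limbus value was near the median of its array, this ratio rests on a low level, and with 32 added to each value it was under 2-fold (a log2 ratio of limbus over cornea of -0.97).

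Peroxiredoxins reduce peroxides through a reactive cysteine, and sulfiredoxin restores them after overoxidation. None of the 6 measured genes of this group was 2-fold apart in any pair, beside 13.9% of all genes. PRDX4, the peroxiredoxin of the endoplasmic reticulum and of secreted proteins, came nearest, with limbal, corneal, and conjunctival values of 1021, 1040, and 2032. Goblet cell and gland markers were also at their highest sum in the conjunctiva, and their part in the PRDX4 value was not tested. PRDX1, a cytosolic enzyme, had 1634, 982, and 1432, and its limbal value exceeded the corneal 1.66-fold. SRXN1, which encodes sulfiredoxin, had 259, 256, and 146, so the conjunctiva was below both other tissues by about the same factor (1.78-fold and 1.76-fold). PRDX6, which also acts on phospholipid peroxides, had 3356, 4069, and 4401 on its brightest probe set. On its other probe set the order turned around, with 301, 283, and 150. The values of PRDX2, a cytosolic form abundant in red cells, were 405, 328, and 316, and those of the mitochondrial PRDX3 were 95.0, 110, and 103.

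In the thioredoxin system, thioredoxin was highest and its inhibitor lowest in the cornea. TXN had limbal, corneal, and conjunctival values of 2523, 5249, and 2442, so cornea exceeded limbus and conjunctiva 2.08-fold and 2.15-fold. A second TXN probe set, at 119, 357, and 131, had its highest value in the cornea as well. After quantile normalization both differences were under 2-fold, with log2 ratios of -0.69 for limbus over cornea and 0.997 for cornea over conjunctiva. Scaled by the hybridization controls these were -0.25 and 0.86.

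TXNIP, which binds thioredoxin and also limits glucose uptake, had limbal, corneal, and conjunctival values of 6958, 3028, and 7932. Conjunctiva exceeded cornea 2.62-fold and limbus exceeded it 2.3-fold. All 3 TXNIP probe sets were lowest in the cornea, at 569 and 129 on the others, with limbus values of 1057 and 231 and conjunctiva values of 971 and 202. On these others the conjunctiva was 1.71-fold and 1.57-fold above the cornea, so the direction was shared and the 2-fold size was not. Which of the limbus and the conjunctiva was higher depended on the probe set, and it also turned with quantile normalization and with the hybridization controls. TXNRD1, the selenoprotein that recharges thioredoxin with NADPH, was nearly level at 425, 424, and 497.

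GLRX, a glutaredoxin that removes glutathione from protein thiols, had limbal, corneal, and conjunctival values of 151, 160, and 343. Conjunctiva exceeded limbus 2.27-fold and cornea 2.14-fold. The second probe set was at 33.8, 31.4, and 55.7, highest in the conjunctiva at 1.78-fold over the cornea. The leukocyte marker PTPRC was also highest there, as given above. The conjunctiva exceeded the limbus less for the leukocyte markers CD14 (1.19-fold), CSF1R (1.21-fold), and CD163 (1.06-fold). The part of leukocytes in the GLRX value was not tested.

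Glutathione is built in the cytosol from amino acids, with cysteine in short supply. SLC7A11, the subunit of the cystine and glutamate exchanger that brings cystine into cells, had limbal, corneal, and conjunctival values of 298, 263, and 98.6. The conjunctiva was below the limbus by 3.03-fold and below the cornea by 2.66-fold. The other SLC7A11 probe sets stayed under 100 in all tissues. They had their lowest value in the conjunctiva too, at 38.5 and 26.0, but their highest in the cornea, at 52.8 and 48.1, and with the median over all probe sets no SLC7A11 ratio reached 2-fold.

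GCLC, the catalytic subunit of the rate-limiting ligase, had limbal, corneal, and conjunctival values of 889, 464, and 774. The limbus was 1.92-fold above the cornea. Another GCLC probe set showed this more strongly, at 190, 61.5, and 103, where the limbus was 3.09-fold above the cornea. GCLM, the modifier subunit, had 426, 313, and 528, with the cornea lowest as for GCLC. Its other probe sets were under 100 in all tissues. On these the lowest tissue was the conjunctiva (46.3, 43.8, and 31.8) or the cornea (23.9, 15.6, and 22.5). GSS, which adds the last amino acid, spanned 1.08-fold on its brightest probe set, at 474, 441, and 477. Its other probe set, at 442, 308, and 436, had the limbus 1.44-fold above the cornea. GSR, which returns oxidized glutathione to its reduced form, had values under 100 in all tissues, at 78.2, 66.4, and 80.8, and on its other probe set at 71.8, 81.4, and 42.2. On their brightest probe sets, the uptake gene SLC7A11 and both ligase subunits thus differed in which tissue was lowest. For GCLM this depended on the probe set.

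Glutathione transferases couple glutathione to reactive compounds, and 4 of the 8 measured here were at least 2-fold apart in some pair (13.9% of all genes were), each lowest in the cornea, as were 46.1% of all genes apart. GSTA4, an alpha class enzyme active on the lipid peroxidation product 4-hydroxynonenal, had limbal, corneal, and conjunctival values of 386, 88.5, and 229. The limbus was 4.36-fold and the conjunctiva 2.59-fold above the cornea. Its other probe set was lower, at 74.8, 35.5, and 52.2, and kept this order of the tissues. GSTM3, of the mu class, had 137, 62.4, and 129, with the limbus 2.21-fold above the cornea. The other GSTM3 probe set, at 46.1, 49.9, and 60.8, did not show this difference. The limbus was lowest on it, so for GSTM3 the difference rests on 1 probe set.

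The membrane-bound transferases MGST1 and MGST2 were highest in the conjunctiva. MGST1, which also reduces lipid peroxides, had limbal, corneal, and conjunctival values of 48.1, 37.2, and 179, so conjunctiva exceeded limbus 3.72-fold and cornea 4.81-fold. A second MGST1 probe set, at 33.9, 28.6, and 109, had the same order. The remaining 3 lay at 61.0 or lower in every tissue, and on the brightest of them (49.1, 58.2, and 61.0) the tissues were nearly level. Both probe sets with the difference are of the kind, marked _x, whose probes can also bind other transcripts, and without such probe sets the log2 ratio of cornea over conjunctiva was -0.07. MGST2, which can make leukotriene C4, had 662, 425, and 1190 on its only named probe set, so the conjunctiva was 2.80-fold above the cornea and 1.80-fold above the limbus. MGST3 ran the other way on its brightest probe set, at 1636, 2654, and 1361, with the cornea 1.95-fold above the conjunctiva.

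Cytosolic transferases of other classes were within 2-fold. GSTP1, the pi class enzyme prominent in many epithelia, had limbal, corneal, and conjunctival values of 1678, 1004, and 1230. GSTO1, of the omega class, which also reduces dehydroascorbate, had 856, 1228, and 746, and its second probe set enlarged the difference, with 437, 857, and 356 and the cornea 2.40-fold above the conjunctiva. For GSTK1, a transferase of mitochondria and peroxisomes, the values of 397, 422, and 374 spanned 1.13-fold.

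The regulators of the response were nearly level, while a classical target was not. NFE2L2, which encodes NRF2, had limbal, corneal, and conjunctival values of 2949, 3100, and 3797. KEAP1, the adaptor that sends NRF2 to degradation, had 513, 539, and 513, the narrowest span of the 35 genes at 1.05-fold. NQO1, a quinone reductase induced through NRF2, had values of 1943, 6668, and 759 in the same order. Cornea exceeded limbus 3.43-fold and conjunctiva 8.78-fold, and limbus exceeded conjunctiva 2.56-fold. Of all 19775 genes, 58 had a larger ratio of the cornea over the conjunctiva. The other NQO1 probe sets kept the order of the tissues, at 335, 628, and 106 and at 122, 175, and 94.6, with the cornea 5.91-fold and 1.85-fold above the conjunctiva. The difference between cornea and limbus was under 2-fold when scaled by the hybridization controls (a log2 ratio of limbus over cornea of -0.98) and with the median over the probe sets (-0.91). HMOX1, the heme-degrading enzyme that is also an NRF2 target, had values under 100 throughout, at 62.3, 88.8, and 79.8.

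Of the 5 corneal epithelial markers, KRT12, KRT3, ALDH3A1, and PAX6 had the order of NQO1, from the cornea over the limbus to the conjunctiva. CLU had 5765, 7513, and 8540, highest in the conjunctiva. The list summed to 16060 (limbus), 32805 (cornea), and 13156 (conjunctiva), with CLU the larger part of the conjunctival sum, and the share of corneal epithelial cells in the NQO1 values was not tested.

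**Figure D3:**
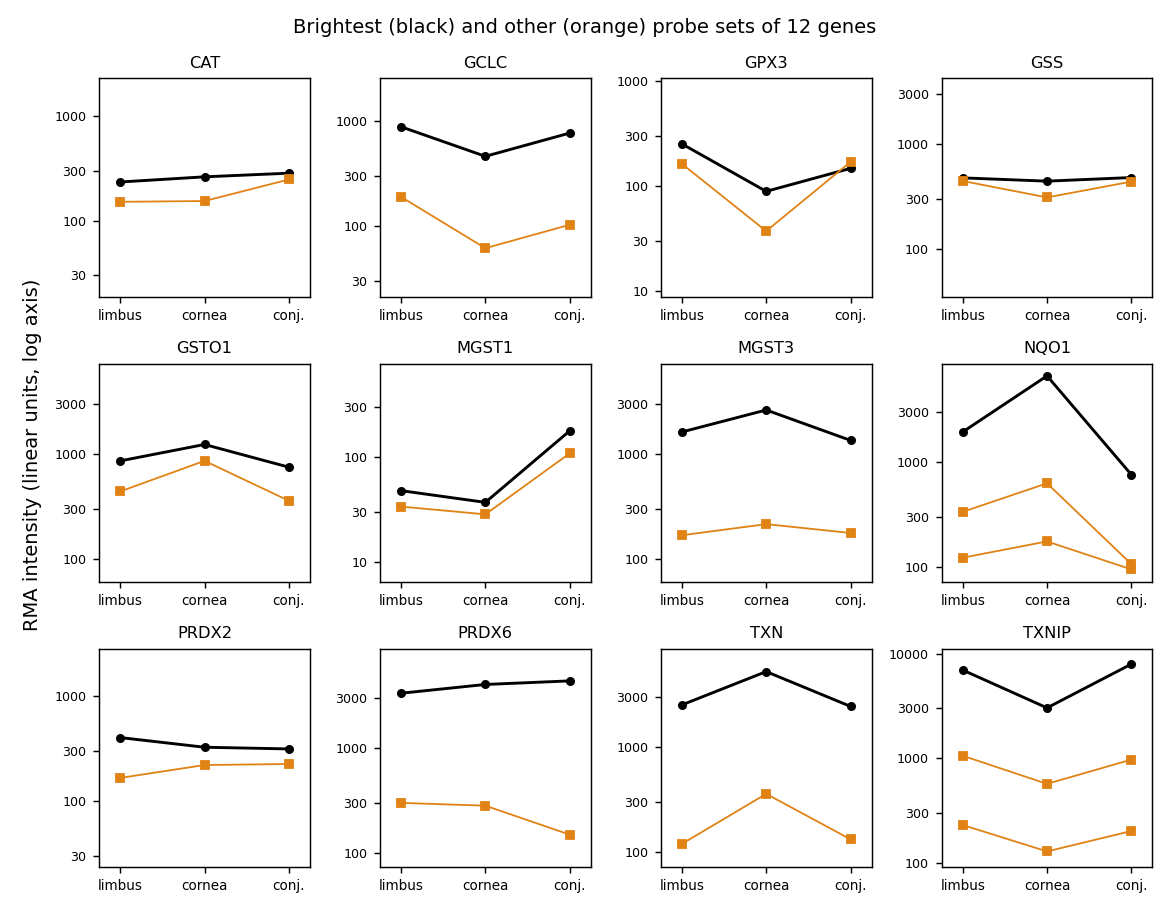
RMA intensity (log axis) by tissue on the brightest probe set (black) and on every other named probe set that reached 100 in some tissue (orange), for the 12 genes that had such a probe set, from 1 array per tissue. NQO1, TXN, GCLC, GSTO1, and MGST1 have the same highest tissue on each probe set shown, TXNIP has the same lowest tissue but not the same highest, and PRDX2 and PRDX6 have neither.

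With single arrays, agreement among probe sets of a gene was the internal check. The 35 genes had 35 other named probe sets, of which 14 in 12 genes reached 100 in some tissue. Of these 14, 8 (57.1%) had the same highest tissue as the brightest probe set, compared with 51.7% of 5808 such probe sets over all genes, and 10 had the same lowest tissue. Of the 21 that stayed under 100, 7 had the same highest tissue. The direction was shared by a second probe set above 100 for NQO1, TXN, TXNIP, MGST1, and, for limbus over cornea, GPX3. GPX2, GSTA4, GLRX, SLC7A11, and GSTM3 had only other probe sets under 100, on which GPX2, SLC7A11, and GSTM3 had another highest tissue. SOD2 and MGST2 had no other.

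**Figure D4:**
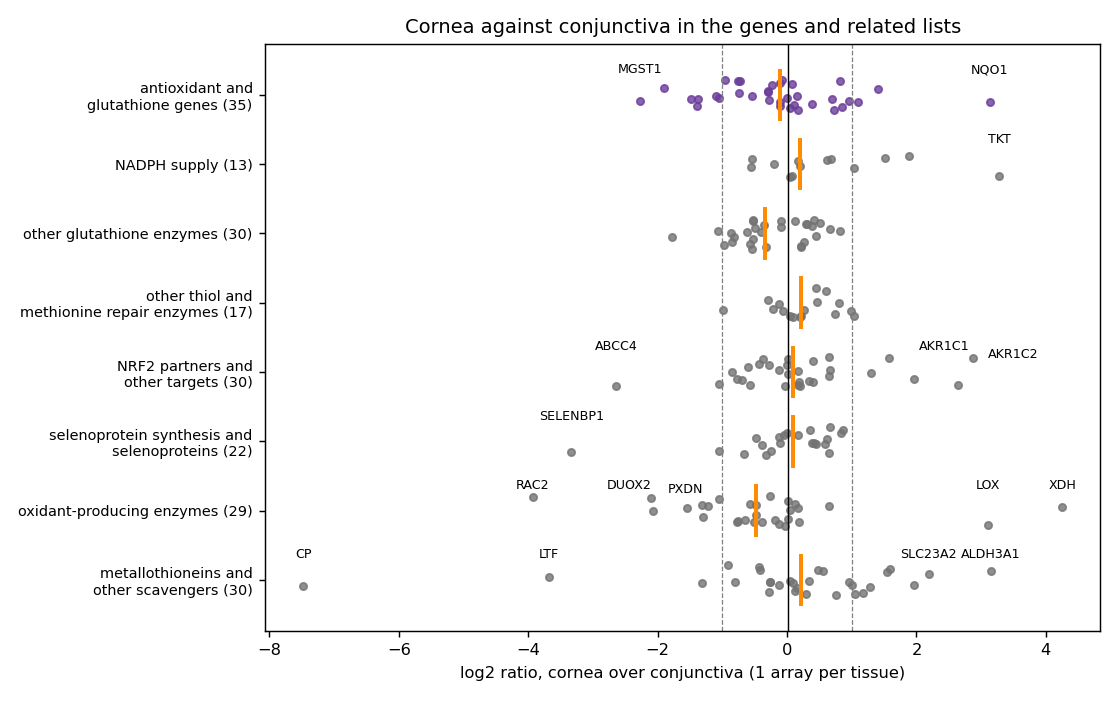
Log2 ratio of the cornea over the conjunctiva for each gene (points, spread vertically for legibility) of the 35 antioxidant and glutathione genes and of 7 related lists, with the number of measured genes in parentheses, from 1 array per tissue; the orange bar is the median of a list, the black line the median of all genes, and dashed lines mark 2-fold. Genes at least 4-fold apart are labelled; the medians lie close to the line of all genes, except for the oxidant-producing and the other glutathione enzymes, which lie to the left.

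Genes next to this set in metabolism were read from related lists. Enzymes that supply NADPH, the electron source of GSR and TXNRD1, had 3 of 13 measured genes that passed in the cornea, that is, at least 2-fold above each other tissue, beside 1.89% of all genes. TKT, a transketolase of the pentose phosphate pathway that is abundant in the cornea, had limbal, corneal, and conjunctival values of 2491, 8887, and 915. The folate enzymes ALDH1L1 (121, 309, and 83.4) and MTHFD2 (230, 579, and 284) were the others. PGD, which makes NADPH in the pentose phosphate pathway, had 882, 1760, and 620, with cornea 2.84-fold over conjunctiva. The median log2 ratio of the cornea over the conjunctiva for this list was 0.20, compared with 0.01 over all genes.

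Of 30 measured genes among the other glutathione enzymes, only GSTA3 passed in the limbus, with 135, 32.6, and 64.0, and none passed in the other tissues. GSTA3 is an alpha class transferase like GSTA4, and both had their highest value in the limbus and their lowest in the cornea. Alpha class genes are related in sequence, and whether these probe sets share signal was not tested. ALOX5AP and LTC4S belong to the same protein family as MGST2 and act in leukotriene synthesis. Conjunctiva exceeded cornea 3.42-fold for ALOX5AP (207 and 60.4) and 2.10-fold for LTC4S (90.3 and 42.9). LTC4S was under 100 in every tissue. They were the 2 of 30 genes with conjunctiva at least 2-fold over cornea (5.68% of all genes). MGST3, another membrane-bound transferase, was highest in the cornea on its brightest probe set, as given above. Among 17 other thiol and methionine repair enzymes none passed in any tissue, beside 4.05% of all genes that passed in some tissue. SESN1, a stress-induced sestrin, had 205, 371, and 181, and SESN3 had 103, 48.6, and 96.7.

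Partners and other targets of NRF2 had 30 measured genes. Of these AKR1C3 alone passed, in the cornea, beside 1.89% of all genes. Its limbal, corneal, and conjunctival values were 56.9, 120, and 30.8. Relative to the conjunctiva, at least 2-fold higher values were found for 5 of the 30 in cornea (5.31% of all genes) and for 4 in limbus (2.62%). Conjunctiva was at least 2-fold over cornea for 2 of the 30 (5.68%) and over limbus for 0 (2.31%). The aldo-keto reductase AKR1C1 had 1609, 2276, and 363, and AKR1C2 had 815, 1266, and 172. These genes and AKR1C3 are close in sequence, and their probe sets may share signal. The carbonyl reductase CBR3 had 712, 1131, and 380, and CBR1 had 1162, 900, and 573. AKR1B10, an aldose reductase, had 188, 111, and 69.7. NQO1, SLC7A11, and SRXN1 shared with these genes a lowest value in the conjunctiva. Other genes of the list did not. ABCC4, an export pump, had 250, 40.9, and 255, so limbus and conjunctiva exceeded cornea 6.12-fold and 6.23-fold. BACH2, a partner of the small MAF proteins, had 117, 62.1, and 129. FTL, the ferritin light chain, had 4119, 3852, and 6942. On their brightest probe sets, the members GCLC, GCLM, and HMOX1 were not lowest in the conjunctiva either. The median log2 ratio of the cornea over the conjunctiva for the 30 genes was 0.09.

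Selenoproteins and the enzymes that build selenocysteine, needed for the glutathione peroxidases and TXNRD1, had none of 22 genes that passed in any tissue. Of all genes 4.05% passed in some tissue. SELENOP, the plasma carrier of selenium, had 92.6, 55.7, and 116, and SELENBP1, a selenium-binding protein that is not built with selenocysteine, had 296, 48.5, and 488, 10.1-fold higher in the conjunctiva than in the cornea. Of the 22 genes, these were the only ones at least 2-fold apart in any pair, beside 13.9% of all genes.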

How the data were processed

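Total RNA of 3 tissues was measured on 1 human U133 Plus 2.0 array each. The authors amplified the RNA in 2 rounds and normalized each array with a fixed pool of reference arrays by justRMA. The submitters' processing notes name RMA with no version. As deposited, each of 54675 probe sets has a linear-scale intensity per array, with 0 missing values and 0 columns of other samples. Because the arrays were normalized separately, differences of scale between them can remain. Probe sets were named from a platform annotation table: 41097 had 1 symbol, 1801 had several and were not used, and 11777 are unnamed here. Gene symbols are those of that table.

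Ratios and log2 differences were computed here with Python 3.11.15, numpy 2.4.6, and pandas 2.3.3, and drawn with matplotlib 3.10.9. A gene passed in a tissue when its value was at least 2-fold above each other tissue, as in the study. The selection rule was run on simulated arrays in which genes were raised well above the threshold. This checks the computation only, since the noise, scale differences, and probe set disagreement of these arrays were not simulated. Of the related lists, each gene that passed with a value of at least 100 is named; other list genes named were chosen after their values were seen. The members, lists, and settings were chosen with earlier results of these data known. Tissue groups follow the source labels. No test was possible with 1 array per tissue, and this number sets the precision. The 9 alternatives tried are a pseudocount of 32, a minimum level of 100, thresholds of 1.5-fold and 3-fold, 3 scalings of the arrays, and 2 other choices of probe set. The number of genes apart in some pair was recomputed under them by a choice made after seeing the data. Sequences were not analysed here.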

Additional observations from a re-analysis of the deposited data

How the results depend on the processing

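Counts of these genes are small, so single genes move them. With a threshold of 1.5-fold, 3, 5, and 4 genes passed for limbus, cornea, and conjunctiva (433, 1243, and 1050 of all 19775 genes), and 21 (37.7% of all genes) were apart in some pair. By pair, limbus was over cornea in 9 genes and under it in 5, over conjunctiva in 6 and under it in 4, and cornea was over conjunctiva in 8 and under it in 11. With 3-fold 0, 1, and 1 genes passed (21, 97, and 99 of all genes), 5 (5.4%) were apart in some pair, and the pairs in the same order held 2, 1, 1, 1, 1, and 2. Scaling by the hybridization controls gave 4, 0, and 1 genes (1134, 74, and 114 of all genes), 19 apart in some pair (37.3%), pairs of 14, 0, 7, and 1 for the limbus against the cornea and the conjunctiva, a highest tissue in 27, 4, and 4 genes, and median log2 shifts of 0.58, -0.64, and -0.0523, where all genes had 0.64, -0.50, and -0.14. With quantile normalization 1 gene passed in the cornea, and the median shift was 0.0637 (limbus) and -0.21 (cornea). By the median over probe sets 0, 1, and 0 genes passed, limbus was over conjunctiva in 1 gene and under it in 0, conjunctiva over cornea in 4, and the conjunctiva shift was -0.0365. In another setting, genes with a named probe set without an _s or _x suffix were read from it. Genes with none, among them NQO1, TXNIP, PRDX6, GPX1, and SOD3, kept their suffixed probe set, so this setting did not check them. There, 1 gene passed in the conjunctiva, and 1 was higher in the conjunctiva than in the limbus. With a pseudocount of 32, 1 gene passed in the conjunctiva. A single value reversed: the log2 ratio of the limbus over the cornea for GSTM3 was -0.11 on its probe set without suffix, in place of 1.14. Of 404 recomputed values of single genes 342 kept their direction and their side of 2-fold, 36 dropped below it, 10 rose above it, and 15 that were under 2-fold changed sign. Part of the 342 could not change, so this share is no measure of robustness. The minimum level of 100 left all of its 56 values as they were. Genes with 1 named probe set kept their values under both other choices of probe set. The remaining counts per tissue, per pair, and apart in some pair (9 to 14 genes) stayed within 1.5 times, and the remaining median shifts within 0.1. No paired analysis was possible because each tissue has 1 array. Values under 100, as for SOD2 and MGST1 in limbus or GSR and HMOX1 throughout, limit what ratios show.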

Other observations

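Enzymes that produce oxidants differed between the tissues in both directions. Of 29 measured genes, XDH and LOX passed the 2-fold threshold in cornea, beside 1.89% of all genes. RAC2 and CYBB passed in conjunctiva (1.68% of all genes) and DUOXA2 in limbus (0.475%). XDH, the xanthine dehydrogenase that can release superoxide and hydrogen peroxide, had limbal, corneal, and conjunctival values of 211, 878, and 45.9. LOX, which makes hydrogen peroxide while cross-linking collagen, had 245, 665, and 77.4. RAC2, a subunit of the phagocyte oxidase complex, had 392, 65.1, and 994, and the catalytic subunit CYBB had 48.7, 41.3, and 102. Other subunits did not all have this order. NCF4 was highest in the limbus (227, 76.9, and 160), NCF1 was nearly level (58.7, 54.0, and 59.0), and CYBA had 619, 737, and 1091. The leukocyte marker PTPRC was also highest in the conjunctiva, with 81.9, 18.8, and 352 in the same order. For CD14, CSF1R, and CD163 the conjunctiva exceeded the limbus by 1.19-fold, 1.21-fold, and 1.06-fold. The part of leukocytes in the RAC2 and CYBB values was not tested. The epithelial oxidase DUOX2 had 354, 54.9, and 237, and its maturation factor DUOXA2 had 313, 112, and 156, both lowest in the cornea as GPX2 was. Across the list, 8 genes had conjunctiva at least 2-fold over cornea (5.68% of all genes) and 2 the reverse (5.31%), and the median log2 ratio of the cornea over the conjunctiva was -0.48.

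Of 8 measured metallothioneins, cysteine-rich proteins that bind zinc and copper and scavenge radicals, 6 had cornea at least 2-fold over conjunctiva (5.31% of all genes). MT1X had limbal, corneal, and conjunctival values of 1981, 4089, and 1409, MT1E had 556, 1155, and 574, and MT2A had 2886, 4951, and 1640. For MT1F, MT1G, and MT1H, cornea exceeded conjunctiva 2.07-fold, 2.26-fold, and 2.44-fold. These genes are close in sequence, and probe sets that share signal among them cannot be told apart here. MT3 (183, 104, and 114) and MT1M (37.7, 30.3, and 28.0) were highest in the limbus. The aldehyde dehydrogenases ALDH3A1 (2949, 9230, and 1041) and ALDH1A1 (2093, 6432, and 1658) also passed in the cornea. SLC23A2, a transporter of ascorbate, had 311, 393, and 86.1, so the conjunctiva was lower by 3.61-fold than the limbus. In the conjunctiva the copper protein CP (1730, 49.8, and 8871) and lactoferrin LTF (59.3, 43.0, and 553), which binds iron, passed the same threshold.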
